A study of Mus musculus with 7 samples.

Results

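Of 47643 genes in the deposited table, 9 were taken by symbol, and all 9 were found. They are the metallothioneins Mt1 and Mt2, their transcriptional activator Mtf1, the zinc importers Slc39a1, Slc39a2 and Slc39a7, and the zinc exporters Slc30a1, Slc30a5 and Slc30a7. Their RNA was measured in alveolar macrophages, phagocytes that live in the airspaces of the mouse lung and that the labels give as positive for CD11c, F4/80 and SiglecF. The groups were cSiah1a/2f/f::Lyz2cre (Lyz2cre, n = 3), cSiah1a/2f/f::CD11ccre (CD11ccre, n = 1) and wild type (WT, n = 3). Cre acts in both lines on floxed alleles of Siah1a and Siah2, whose products are E3 ubiquitin ligases. Lyz2 drives Cre in macrophages and neutrophils, and the CD11c promoter drives it in alveolar macrophages and dendritic cells. Age and sex are not given, nor is it given whether WT mice carried Cre or floxed alleles. Nothing says that replicates came from separate animals, so p-values measure the spread between libraries, which may be technical.

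Metallothioneins are small, cysteine-rich proteins that bind zinc and copper and buffer the free metal in the cytosol. ZIP transporters (Slc39a genes) bring zinc into the cytosol from outside the cell or from organelles, and ZnT transporters (Slc30a genes) move it out of the cytosol. MTF1 senses free zinc and, when zinc is plentiful, binds metal response elements (MREs) in the promoters of the metallothionein genes and of the exporter Slc30a1. Macrophages use this system both to withhold zinc from microbes and to protect themselves from excess metal.

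Mt2 and Mt1 lie side by side on chromosome 8 (GRCm38, GENCODE M21), at 94172664 to 94173568 and 94179082 to 94180327, both on the plus strand and 5513 bases apart. Their promoters are shown because both genes are classical MTF1 targets and their levels moved together across the libraries. Each line holds the 250 bases before the start annotated by RefSeq on GRCm38.p6, plus strand, with matches on either strand to the MRE core, TGCACNC or TGCGCNC, in capitals.
Mt2, chr8:94172368-94172617: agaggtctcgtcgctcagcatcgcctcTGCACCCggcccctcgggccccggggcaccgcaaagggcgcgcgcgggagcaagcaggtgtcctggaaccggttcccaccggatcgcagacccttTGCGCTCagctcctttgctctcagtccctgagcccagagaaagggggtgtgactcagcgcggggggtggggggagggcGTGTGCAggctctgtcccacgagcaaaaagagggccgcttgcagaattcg
Mt1, chr8:94178839-94179088: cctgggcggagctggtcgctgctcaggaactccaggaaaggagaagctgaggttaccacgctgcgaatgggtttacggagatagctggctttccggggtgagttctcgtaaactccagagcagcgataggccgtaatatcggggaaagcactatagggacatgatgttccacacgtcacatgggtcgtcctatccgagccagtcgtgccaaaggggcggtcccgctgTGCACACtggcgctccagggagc
The Mt2 window held 3 matches and the Mt1 window held 1. These counts cover the 250 bases only and are not totals for a promoter. The Mt1 window ends at 94179088, past the GENCODE start at 94179082, and bases beyond it were not searched. Of 32851 RefSeq promoter windows of this length, 21.4% held at least 1 match and 1.26% held at least 3. Slc30a1 and Slc30a5 held 1 match each, and the windows of Mtf1, Slc39a1, Slc39a2, Slc39a7 and Slc30a7 held 0. The Slc39a2 window (51893360 to 51893609) lies wholly past the GENCODE start at 51892889. The Mtf1 window (124802299 to 124802548) likewise lies past the GENCODE start at 124802104. For both genes the bases before the GENCODE start were not searched. The windows of Slc30a1 and Slc39a1 also ended past the GENCODE start. The core of the antioxidant response element, TGACNNNGC on either strand, was present once in each of the windows of Mt2, Slc39a1 and Slc30a1 without overlapping an MRE match, and in 10.2% of all windows. A match is a run of letters and was not tested as a binding site.

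Levels were in TPM, a share of each library scaled by gene length, so the sequencing depth is unknown. Siah1a was at most 0.05 TPM in Lyz2cre, listed at 0 in CD11ccre and at least 6.72 TPM in WT, and Siah2 averaged 1.63 TPM in Lyz2cre, 1.21 TPM in CD11ccre and 14.5 TPM in WT. Lyz2 stood at 46.6 to 61.9 TPM in Lyz2cre, 50676 TPM in CD11ccre and 72.6 to 86.2 TPM in WT. CD11ccre therefore also differed from both other groups in Lyz2, and the part of this in the comparisons below was not tested. All 14 alveolar macrophage markers averaged at least 111 TPM over the 7 libraries, but they differed between groups. They summed to 62904 to 77728 TPM in Lyz2cre, 70667 TPM in CD11ccre and 33710 to 36571 TPM in WT. Of the 14, 1 averaged 44101 TPM over the 7 libraries, so the sum mostly follows that gene. Siglecf, a marker in the sort, stood at 65.5 to 107 TPM in Lyz2cre, 53.9 TPM in CD11ccre and 211 to 256 TPM in WT. Itgax, which encodes CD11c, went the other way, at 421 to 434 TPM in Lyz2cre, 541 TPM in CD11ccre and 327 to 387 TPM in WT. The part of these markers in the results below was not tested. Summed markers of alveolar type 2 cells were 77.7 to 96.5 TPM in Lyz2cre, 71.4 TPM in CD11ccre and 87.8 to 94.0 TPM in WT. Neutrophil markers summed to 103 to 136 TPM in Lyz2cre, 98.4 TPM in CD11ccre and 43.7 to 91.1 TPM in WT. Of these 8 markers, 4 averaged under 1 TPM, and 2 of those, Ly6g and Camp, were at 0 in every library. Another averaged 67.1 TPM over the 7 libraries, so the sum mostly follows that gene. The ferritin genes Ftl1 and Fth1, with Chil3, made up 14.4% to 16.3% of all TPM in Lyz2cre, 14.0% in CD11ccre and 4.90% to 5.29% in WT. Mitochondrially encoded genes made up 2.67% to 4.61% in Lyz2cre, 4.23% in CD11ccre and 7.54% to 9.25% in WT. The median log2 fold change over the 11397 genes tested was -0.16 in Lyz2cre against WT and -0.29 in CD11ccre against WT, and -0.00078 and -0.0055 after median-of-ratios scaling, so the changes below are to be read against these medians. In bulk RNA, fewer cells of a type and less RNA per cell cannot be told apart.

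All 9 genes averaged at least 1 TPM and were tested with limma on log2(TPM + 1), a scale that understates the change of low genes. In Lyz2cre against WT, Slc39a2 rose and Mtf1 fell at an adjusted p under 0.05, and the other 7 did not pass, although 5 of the 9 had an unadjusted p under 0.05, as did 24.6% of all genes tested. Over all genes tested, 6.76% passed, 2.17% higher and 4.60% lower. The median log2 fold change of the 9 genes was 0.39. The 9 genes were chosen with earlier results of these data known, so counts and medians over them are not independent of the data. In CD11ccre against WT, Slc39a2 rose and the other 8 did not pass, beside 2.89% of all genes tested (0.895% higher and 1.99% lower), and the median of the 9 was 0.25. Between CD11ccre and Lyz2cre, limma called 0 of the 9 genes, with 0 at an unadjusted p under 0.05, beside 0.114% of all genes tested (0.0439% higher and 0.0702% lower). The comparisons against WT share the same 3 WT libraries, and the lone CD11ccre library was assumed to vary like the others. Lyz2cre and WT libraries did not overlap for 4 of the 9 genes, beside 30.8% of all genes tested. Of these, Mt2, Slc39a1 and Slc39a2 were higher in Lyz2cre, as were 7.45% of all genes, and Mtf1 was lower, as were 23.3%. CD11ccre lay outside the WT range for 6 of the 9, beside 63.5% of all genes tested. Mt1, Mt2, Slc39a1, Slc39a2 and Slc30a7 were above that range, where 13.0% of all genes were, and Mtf1 was below it, where 50.5% were. CD11ccre lay outside the Lyz2cre range for 4 of the 9, all of them below it, beside 54.7% of all genes tested in either direction.

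**Figure D1:**
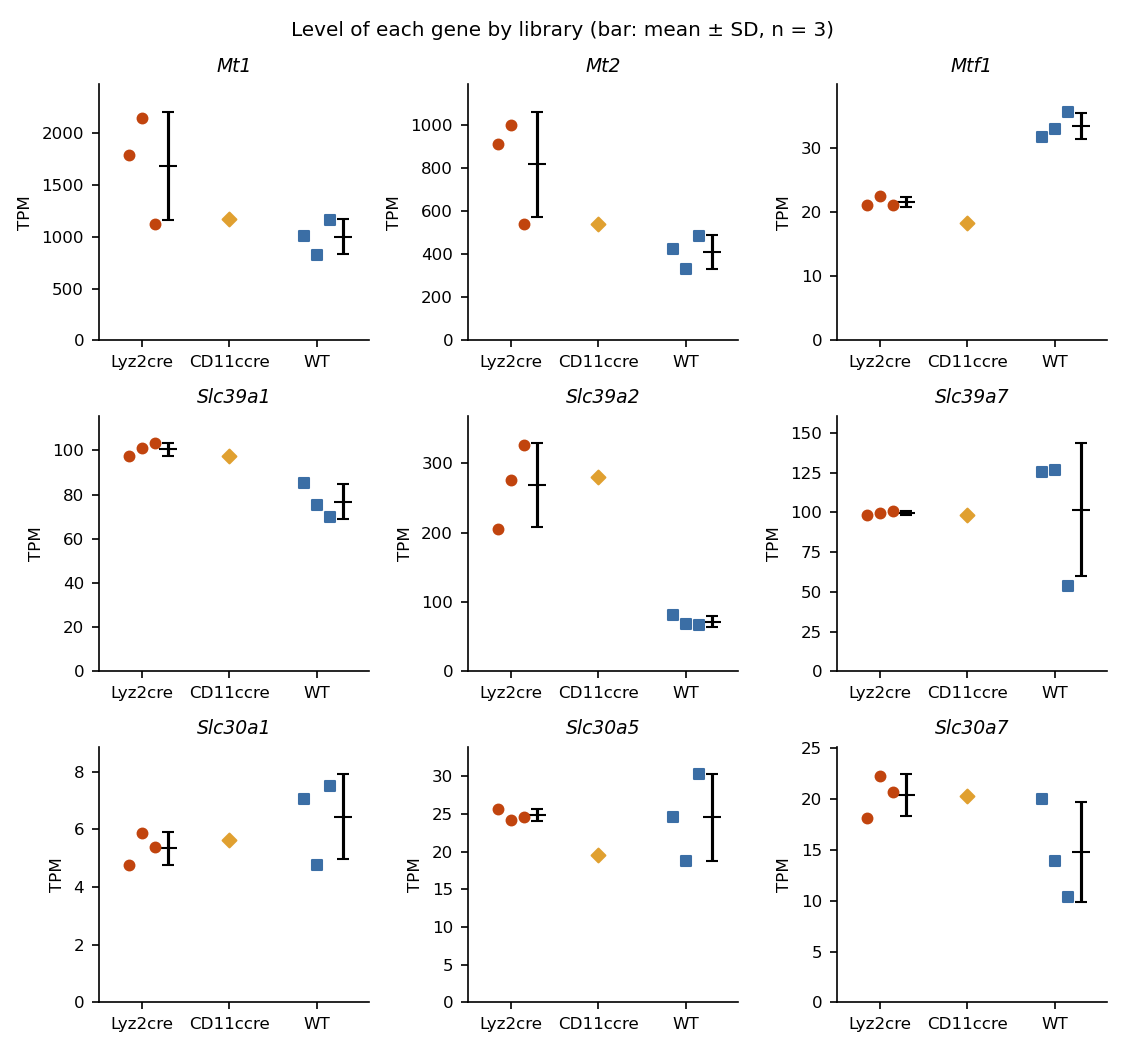
TPM of the 9 genes in each library of Lyz2cre (circles), CD11ccre (diamonds) and WT (squares), with the mean ± SD over 3 libraries as bars and every axis starting at 0. Slc39a2 stood at 205 to 326 TPM in Lyz2cre and 66.5 to 80.7 TPM in WT, and Mtf1 was lower in every Lyz2cre library than in any WT library.

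The metallothioneins were the most abundant of the 9 transcripts in every group. Mt1 stood at 1792, 2141 and 1120.1 TPM in Lyz2cre, 1174 TPM in CD11ccre and 1002, 828 and 1164 TPM in WT. Lyz2cre replicates 1 and 2 were above every WT library, replicate 3 lay inside the WT range, and CD11ccre was just above it. Mean Mt1 was 1.69-fold higher in Lyz2cre than in WT, a log2 fold change of 0.72 ± 0.24 (SE) that did not pass (limma adjusted p = 0.126; exact two-sided permutation p = 0.2). The CD11ccre value against WT was 0.25 ± 0.34 (SE; adjusted p = 0.713).

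Mt2 stood at 909, 999 and 539 TPM in Lyz2cre, 539 TPM in CD11ccre and 422, 329 and 484 TPM in WT. All libraries of both Cre lines were above all WT libraries, and Lyz2cre replicate 3 was again the lowest of its group. The mean was 1.98-fold higher in Lyz2cre than in WT, a log2 fold change of 0.95 ± 0.25 (SE) that did not pass (limma adjusted p = 0.0659). The exact two-sided permutation test gave p = 0.1, the smallest that 3 against 3 libraries allow. Mt2 passed under 4 of 19 alternatives, among them median-of-ratios scaling (adjusted p = 0.0374) and leaving out Lyz2cre replicate 3 (log2 fold change 1.23, adjusted p = 0.0394), and its adjusted p ran from 0.0303 to 0.195. The CD11ccre log2 fold change against WT was 0.41 ± 0.35 (SE; adjusted p = 0.539). CD11ccre minus Lyz2cre was -0.47 ± 0.34 (SE; adjusted p = 0.912) for Mt1 and -0.55 ± 0.35 (SE; adjusted p = 0.888) for Mt2.

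Markers of airway club and ciliated cells were also lowest in Lyz2cre replicate 3. Of 7 such markers, 6 averaged at least 1 TPM and none was at 0 in every library. They summed to 379, 375 and 152 TPM in Lyz2cre replicates 1, 2 and 3, 322 TPM in CD11ccre and 383 to 554 TPM in WT. WT libraries had the lowest Mt2 and the highest marker sums. The lowest WT sum, 383 TPM, was close to the 379 TPM of Lyz2cre replicate 1. The part of these markers in the metallothionein values was not tested.

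Mt1 and Mt2 tracked each other, with a Pearson r of 0.988 on log2(TPM + 1) over 7 libraries that share their scale and include the group difference. Together they made up 0.270%, 0.314% and 0.166% of the TPM in Lyz2cre, 0.171% in CD11ccre and 0.142%, 0.116% and 0.165% in WT. The balance between them was not the same in every group. For every 100 TPM of Mt1, Mt2 stood at 50.7, 46.7 and 48.1 TPM in Lyz2cre, 46.0 TPM in CD11ccre and 42.1, 39.7 and 41.6 TPM in WT. Every library of the Cre lines was above every WT library, also Lyz2cre replicate 3, whose level was near that of WT. This ratio does not depend on the scale of a library; it was chosen after values were seen and is given without a test. In GENCODE M21, 30.2% of the 75-base stretches of Mt2 transcripts also lie in the antisense gene Gm45774, while Mt1 shares none with another gene. The libraries were made with a directional kit, but the strand setting of the quantification is not given in the sources used here. No level of Gm45774 is given here, and its part in the Mt2 values and in the ratio was not tested.

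**Figure D2:**
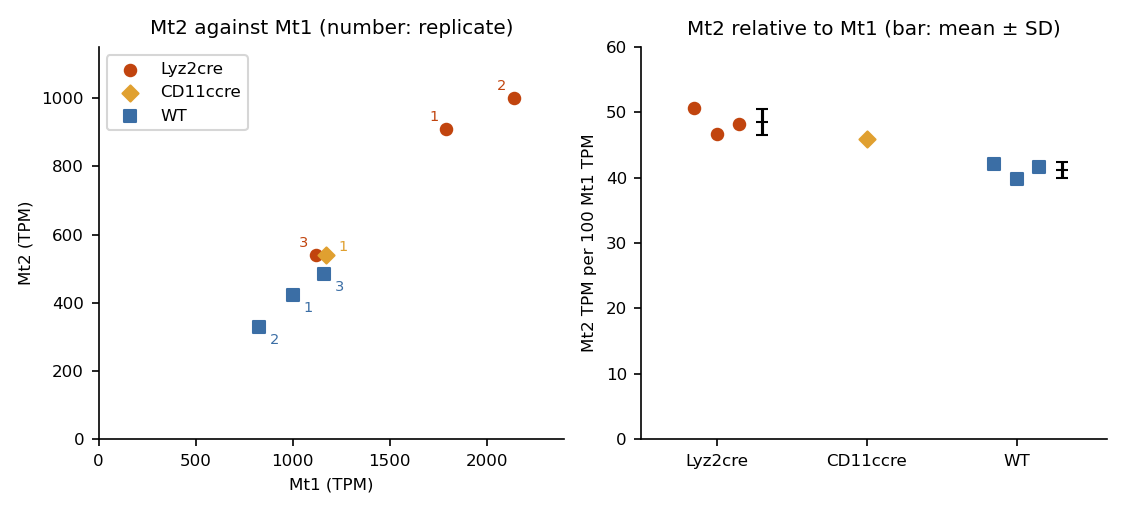
Left, Mt2 against Mt1 in TPM in each library, numbered by replicate; right, Mt2 TPM per 100 TPM of Mt1, with the mean ± SD over 3 libraries as bars. The ratio was 46.7 to 50.7 in Lyz2cre, 46.0 in CD11ccre and 39.7 to 42.1 in WT, although Lyz2cre replicate 3 and CD11ccre lay near WT replicate 3 in level.

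The other metallothionein genes were nearly silent. Mt3, known from brain, was listed at 0.66 TPM in Lyz2cre replicate 3 and at 0 in the other libraries, and Mt4, known from stratified epithelium, at 0 in all 7.

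Mtf1, the zinc-sensing activator, was lower in the Cre lines. It stood at 21.0, 22.4 and 21.0 TPM in Lyz2cre, 18.3 TPM in CD11ccre and 31.6, 32.9 and 35.5 TPM in WT. The groups did not overlap, and CD11ccre was the lowest library. Mtf1 fell in Lyz2cre against WT by a log2 fold change of -0.61 ± 0.12 (SE; limma adjusted p = 0.0343; exact permutation p = 0.1). In CD11ccre against WT the value was -0.83 ± 0.18 (SE; adjusted p = 0.0558), and CD11ccre minus Lyz2cre was -0.22 ± 0.18 (SE; adjusted p = 0.920). Set against the median of all genes tested, the log2 fold change of Mtf1 was -0.45 in Lyz2cre and -0.54 in CD11ccre. The Lyz2cre call ended after median-of-ratios scaling (log2 fold change -0.44, adjusted p = 0.104), with quantile normalization (-0.44, adjusted p = 0.117) and without Ftl1, Fth1 and Chil3 in the scale (-0.45, adjusted p = 0.0938). At -0.61 it ended without the trend (adjusted p = 0.0570) and with the replicate number as a block (0.0789). It also ended when any 1 Lyz2cre or WT library was left out, with an adjusted p of 0.104, 0.0888 and 0.116 for Lyz2cre replicates 1, 2 and 3 and 0.0753, 0.0837 and 0.0668 for WT replicates 1, 2 and 3. Part of the Mtf1 locus (chromosome 4, 124802104 to 124849800) overlaps 1110065P20Rik on the opposite strand, which was listed at 3.27 to 11.2 TPM and shares 7.27% of the 75-base stretches.

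Slc39a2 (chromosome 14, 51892889 to 51896745), a ZIP importer of the plasma membrane, had the largest fold change of the 9 genes in both Cre lines against WT. It stood at 205, 275 and 326 TPM in Lyz2cre, 281 TPM in CD11ccre and 80.7, 68.5 and 66.5 TPM in WT. Every library of the Cre lines was far above every WT library, and CD11ccre lay inside the Lyz2cre range. Lyz2cre replicate 3, the lowest of its group for both metallothioneins, was the highest for Slc39a2. The log2 fold change was 1.87 ± 0.18 (SE; limma adjusted p = 0.00340) in Lyz2cre against WT and 1.96 ± 0.26 (SE; adjusted p = 0.0150) in CD11ccre against WT. The Lyz2cre call held under all 19 alternatives, with adjusted p from 0.000342 to 0.0315. The CD11ccre call ended without WT replicates 1, 2 and 3 (adjusted p = 0.0567, 0.0744 and 0.0571), each left out singly, at log2 fold changes of 2.04, 1.92 and 1.90. CD11ccre minus Lyz2cre was 0.09 ± 0.26 (SE; adjusted p = 0.990).

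Slc39a1, an importer of the plasma membrane found in most cells, stood at 97.5, 101 and 103 TPM in Lyz2cre, 97.5 TPM in CD11ccre and 85.4, 75.2 and 69.8 TPM in WT. All libraries of the Cre lines were above all WT libraries, with little spread in Lyz2cre. Neither the log2 fold change of 0.39 ± 0.12 (SE; limma adjusted p = 0.0933) in Lyz2cre against WT nor that of 0.34 ± 0.16 (SE; adjusted p = 0.265) in CD11ccre against WT passed. In Lyz2cre it passed after median-of-ratios scaling (0.57, adjusted p = 0.0362), with quantile normalization (0.56, adjusted p = 0.0330) and without Ftl1, Fth1 and Chil3 in the scale (0.55, adjusted p = 0.0455). Its pseudogene Slc39a1-ps, which shares 17.9% of the 75-base stretches, was listed at 0 to 0.8 TPM.

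Slc39a7, which releases zinc from the endoplasmic reticulum into the cytosol, stood at 98.5, 99.8 and 101 TPM in Lyz2cre, 98.1 TPM in CD11ccre and 125, 127 and 53.4 TPM in WT. WT replicate 3 was far below all other libraries, while WT replicates 1 and 2 were above both Cre lines. The log2 fold change was 0.07 ± 0.32 (SE; limma adjusted p = 0.918) in Lyz2cre against WT and 0.05 ± 0.45 (SE; adjusted p = 0.963) in CD11ccre against WT. Without WT replicate 3 it was -0.34 (adjusted p = 0.0913) in Lyz2cre and -0.36 (adjusted p = 0.143) in CD11ccre. The readthrough gene Gm20427, on the same strand, shares 71.6% of the 75-base stretches of Slc39a7 and was listed at 0 to 4.12 TPM, highest in WT replicate 3, so the split of reads between these genes is uncertain.

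The makeup of ZIP transcripts differed with Slc39a2. The 14 Slc39a genes summed to 512.5, 594 and 650 TPM in Lyz2cre, 579 TPM in CD11ccre and 406, 366 and 300.3 TPM in WT. Slc39a2 supplied 40.0%, 46.4% and 50.2% of that sum in Lyz2cre, 48.5% in CD11ccre and 19.9%, 18.7% and 22.1% in WT. Without Slc39a2, the sum was 307 to 324 TPM in Lyz2cre, 298 TPM in CD11ccre and 234 to 326 TPM in WT, so the groups overlapped. By mean TPM, Slc39a2 ranked as the third of the 9 genes in Lyz2cre and CD11ccre and as the fifth in WT. The WT order from high to low was Mt1, Mt2, Slc39a7, Slc39a1, Slc39a2, Mtf1, Slc30a5, Slc30a7 and Slc30a1. Across the WT libraries the ranges of Slc39a7 and Slc39a1, of Slc39a1 and Slc39a2, and of Slc30a5 and Slc30a7 overlapped, and those of the other neighbours did not.

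**Figure D3:**
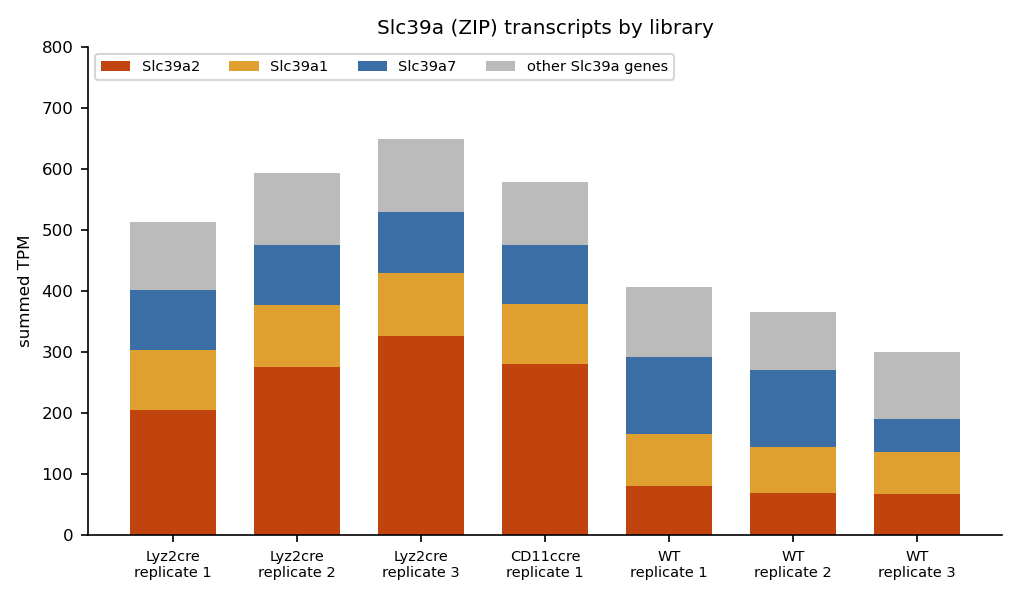
Summed TPM of the 14 Slc39a (ZIP) genes in each library, stacked as Slc39a2, Slc39a1, Slc39a7 and the other Slc39a genes. Slc39a2 made up 40.0% to 50.2% of the stack in Lyz2cre, 48.5% in CD11ccre and 18.7% to 22.1% in WT, and the rest of the stack overlapped between groups.

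The ZnT genes passed in neither Cre line. Slc30a1, the exporter of the plasma membrane, was the least abundant of the 9, at 4.75, 5.88 and 5.39 TPM in Lyz2cre, 5.62 TPM in CD11ccre and 7.06, 4.76 and 7.52 TPM in WT. Its groups overlapped, with a log2 fold change of -0.22 ± 0.22 (SE; limma adjusted p = 0.600) in Lyz2cre against WT and -0.15 ± 0.31 (SE; adjusted p = 0.816) in CD11ccre against WT, the CD11ccre value being 0.12 after median-of-ratios scaling. Slc30a5 and Slc30a7 load zinc into the early secretory pathway. Slc30a5 stood at 25.7, 24.1 and 24.6 TPM in Lyz2cre, 19.6 TPM in CD11ccre and 24.5, 18.8 and 30.3 TPM in WT. The WT libraries spanned all the others, and the log2 fold change was 0.04 ± 0.19 (SE; adjusted p = 0.926) in Lyz2cre and -0.29 ± 0.26 (SE; adjusted p = 0.562) in CD11ccre. Slc30a7 stood at 18.2, 22.3 and 20.7 TPM in Lyz2cre, 20.3 TPM in CD11ccre and 20.1, 14.0 and 10.3 TPM in WT. WT replicate 1 lay among the Lyz2cre libraries, and the log2 fold change of 0.48 did not pass in Lyz2cre (SE 0.24, adjusted p = 0.261) or in CD11ccre (SE 0.34, adjusted p = 0.438). Without WT replicate 3, the lowest, it was 0.27 in Lyz2cre and 0.26 in CD11ccre, and without WT replicate 1 it was 0.71 in both. Of the 75-base stretches of Slc30a7, 14.9% also lie in other genes, among them Gm43106 and Gm6649, listed at 0 TPM in every library. All Slc30a genes listed summed to 79.1 to 81.3 TPM in Lyz2cre, 66.1 TPM in CD11ccre and 66.0 to 84.9 TPM in WT.

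**Figure D4:**
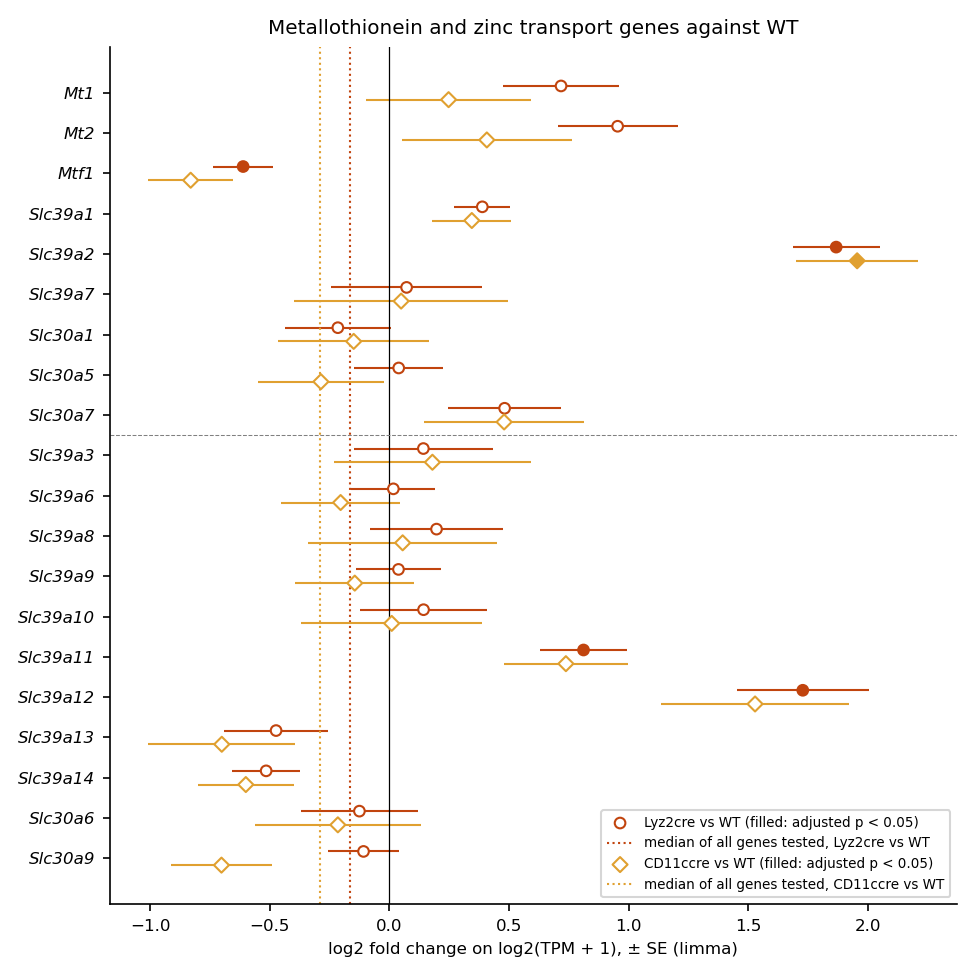
Log2 fold change ± SE against WT from limma on log2(TPM + 1), for the 9 genes (above the dashed line) and 11 further Slc39a and Slc30a genes (below it), with Lyz2cre as circles, CD11ccre as diamonds, filled symbols at an adjusted p under 0.05 and dotted lines at the medians of all genes tested, -0.16 and -0.29. Slc39a2, Slc39a11 and Slc39a12 passed as higher and Mtf1 as lower in Lyz2cre, and only Slc39a2 passed in CD11ccre.

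The rest of the metallothionein, ZIP and ZnT families comprised 20 genes, of which 11 were tested. The other 9 averaged under 1 TPM, and 6 of those (Mt4, Slc39a5, Slc30a2, Slc30a3, Slc30a8 and Slc30a10) were at 0 in every library. In Lyz2cre against WT 2 of the 11 rose and 0 fell, with 3 at an unadjusted p under 0.05 (6.76% and 24.6% of all genes tested), and their median log2 fold change was 0.04, against -0.16 over all genes. For CD11ccre against WT, limma called 0 of the 11, with 4 at an unadjusted p under 0.05 (2.89% and 22.3% of all genes tested), and the median was -0.14, against -0.29 over all genes.

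Slc39a12, a ZIP importer known mainly from the nervous system, stood at 12.2, 13.3 and 15.7 TPM in Lyz2cre, 11.8 TPM in CD11ccre and 3.32, 2.15 and 5.36 TPM in WT. Every library of the Cre lines was above every WT library. It rose in Lyz2cre (log2 fold change 1.73 ± 0.28, SE; limma adjusted p = 0.0153), and in CD11ccre the value was 1.53 ± 0.39 (SE; adjusted p = 0.0827). The Lyz2cre call ended when Lyz2cre replicate 1, 2 or 3 was left out (adjusted p = 0.0594, 0.0679 and 0.0785) and when WT replicate 1 or 2 was (0.0676 and 0.0512), and also with no filter (0.0633).

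Slc39a11, an intracellular ZIP, stood at 22.5, 19.6 and 19.8 TPM in Lyz2cre, 19.5 TPM in CD11ccre and 14.2, 10.8 and 9.35 TPM in WT, again without overlap. It rose in Lyz2cre (log2 fold change 0.81 ± 0.18, SE; limma adjusted p = 0.0440), and in CD11ccre the value was 0.74 ± 0.26 (SE; adjusted p = 0.157). That call ended when Lyz2cre replicate 1, 2 or 3 was left out (adjusted p = 0.140, 0.113 and 0.132) and when WT replicate 2 or 3 was (0.125 and 0.0891). It also ended with no filter (0.0934), without the trend (0.0683) and with the replicate number as a block (0.0644).

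Slc39a14, which carries zinc, iron and manganese, stood at 13.2, 12.4 and 12.9 TPM in Lyz2cre, 12.0 TPM in CD11ccre and 19.4, 16.9 and 20.02 TPM in WT. All libraries of the Cre lines were below all WT libraries, but the log2 fold changes of -0.51 ± 0.14 (SE; limma adjusted p = 0.0767) in Lyz2cre and -0.60 ± 0.20 (SE; adjusted p = 0.146) in CD11ccre did not pass. Slc39a13, a ZIP of the secretory pathway, averaged 20.2 ± 6.27 TPM in Lyz2cre and 27.7 ± 2.59 TPM in WT (SD, n = 3 each), with overlap, and stood at 16.6 TPM in CD11ccre. Slc30a9, a ZnT of mitochondria, averaged 21.7 ± 2.32 TPM in Lyz2cre and 23.4 ± 2.17 TPM in WT (SD, n = 3 each) and stood at 14.0 TPM in CD11ccre, below both groups. Its log2 fold change in CD11ccre against WT was -0.70 ± 0.21 (SE; adjusted p = 0.116). Slc39a3, Slc39a6, Slc39a8, Slc39a9, Slc39a10 and Slc30a6 overlapped between Lyz2cre and WT and did not pass.

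Metallothioneins also bind copper and are induced by glucocorticoids, so genes of both kinds were set beside them. Of 13 copper-handling genes 12 were tested, and in Lyz2cre against WT 1 rose and 0 fell, beside 6.76% of all genes tested, with a median log2 fold change of 0.36. The riser was Slc31a2, which acts in copper release from endosomes, at 62.1, 77.05 and 79.4 TPM in Lyz2cre, 70.0 TPM in CD11ccre and 47.7, 35.2 and 47.9 TPM in WT. Its log2 fold change was 0.73 ± 0.17 (SE; limma adjusted p = 0.0468) in Lyz2cre, a call kept under 10 of 19 alternatives, and 0.69 ± 0.24 (SE; adjusted p = 0.155) in CD11ccre. Of 10 glucocorticoid-responsive genes 8 were tested, and in Lyz2cre 1 rose and 0 fell, with a median of -0.15. Over all genes tested, 2.17% passed as higher. At 1 of 12 and 1 of 8, the lists are too small to set their shares against that. The riser, the kinase Sgk1, stood at 1403, 1254 and 1034 TPM in Lyz2cre, 817 TPM in CD11ccre and 729, 719 and 915 TPM in WT (log2 fold change 0.64 ± 0.15, SE; adjusted p = 0.0485 in Lyz2cre, kept under 7 of 19 alternatives). Both calls ended when any 1 of the Lyz2cre and WT libraries was left out, with an adjusted p of 0.0774 to 0.156 for Slc31a2 and 0.0571 to 0.151 for Sgk1. Against WT, limma called 0 genes in CD11ccre of either list, with 3 of each at an unadjusted p under 0.05, beside 22.3% of all genes tested.

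Among 7997 genes with a mean of at least 5 TPM, those most like Mt1 over the 7 libraries, by Pearson r of log2(TPM + 1), were Mt2 (0.988), Mnat1 (0.977), Rnf123 (0.948), Cyb561a3 (0.945) and Ndufb2 (0.944). Those most like Slc39a2 were Gdpd1 (0.994), Osbpl3 (0.993), Ctsd (0.992), Wfdc17 (0.991) and Maoa (0.989). The libraries share their scale and fall into groups that differ in Slc39a2, so these r values include the group difference and carry no test. Within Lyz2cre, the neighbours of Mt1 were lowest in replicate 3, as Mt1 was, with Rnf123 at 16.4, 19.0 and 9.71 TPM. Wfdc17, at 285, 428 and 597 TPM in the same libraries, was highest in replicate 3, as Slc39a2 was. Both lists were picked by r over libraries that include these, so likeness within Lyz2cre comes with the choice and is no separate result.

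**Figure D5:**
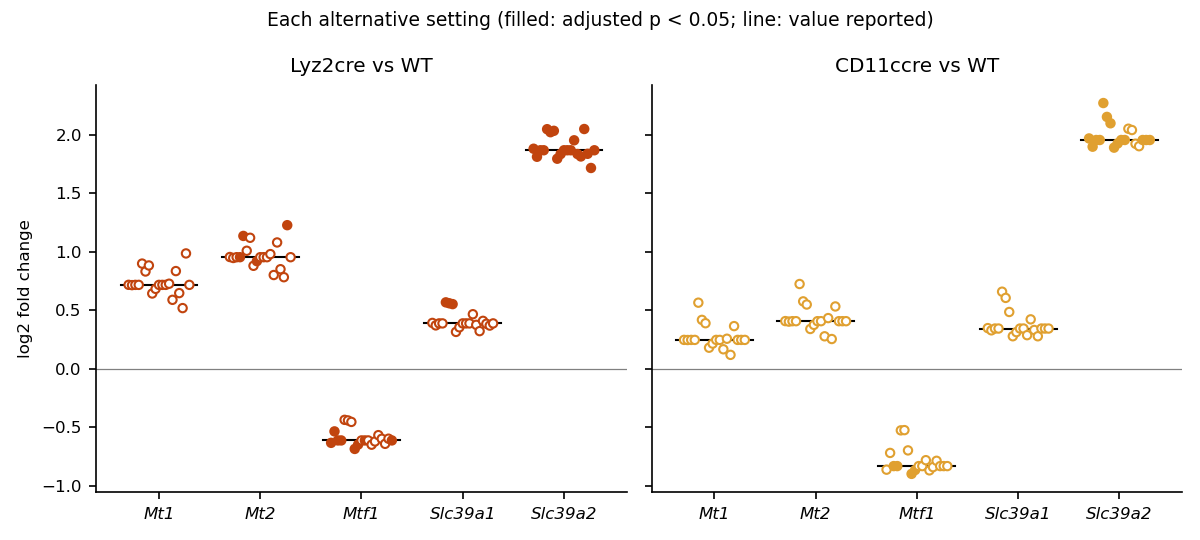
Log2 fold change of Mt1, Mt2, Mtf1, Slc39a1 and Slc39a2 against WT under each alternative setting, 19 for Lyz2cre (left) and 18 for CD11ccre (right), with filled points at an adjusted p under 0.05 and a line at the value reported. Slc39a2 stayed between 1.72 and 2.05 in Lyz2cre and passed in all 19, while Mtf1 lay between -0.68 and -0.44 there and passed in 8.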

How the data were processed

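RNA was measured in 7 libraries of poly(A) RNA made with a directional kit and read from 1 end (75 bases), per the labels' protocols. The authors deposited 1 table of TPM for 47643 genes. Tools named in the submitters' processing notes are RSEM 1.3.1, STAR 2.7.0d and cutadapt 2.3, with the build mm10. For their parameters, the annotation release and the strand setting, nothing was given in the sources used here. TPM sums to 1000000 per library, so abundant genes lower all others, and depth and counting error cannot be recovered.

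Groups came from the titles. The test was limma 3.58.1 (R 4.3.3) on log2(TPM + 1) with a mean-variance trend, all 7 libraries in 1 fit, and Benjamini-Hochberg adjustment over the 11397 genes that averaged at least 1 TPM (threshold 0.05, two-sided, 4 residual and 3.35 prior degrees of freedom). Mean TPM of Lyz2cre and WT was compared by exact permutation. The limma fit was checked on simulated data, and the permutation test on small made-up cases with a known p. IDs were matched to GENCODE M21 (47224 of 47643), and promoters to RefSeq on GRCm38.p6 for all 9 genes.

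The 9 genes and the gene lists were chosen with earlier results of these data known. Named besides the 9 were the other family genes averaging at least 1 TPM, and called copper and glucocorticoid genes. The 5 genes most like Mt1 and Slc39a2 were also named, with Siah1a, Siah2, Lyz2 and Itgax as checks of the labels. Genes named outside this rule are those at or under 1 TPM, overlapping genes, marker genes, and Ftl1, Fth1 and Chil3 for their share of the TPM. Alternatives were pseudocounts of 0.1 and 5, no filter, a filter at 5 TPM, median-of-ratios, quantile and 3 rescaled versions of the TPM, robust fitting, no trend, a replicate block, and leaving out each library. At most 1.79% of values were identical between any pair of libraries.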

Additional observations from a re-analysis of the deposited data

How the results depend on the processing

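Of 701 log2 fold changes of single genes recomputed under the alternatives, 621 kept their direction and side of the threshold, 12 gained a call, 57 lost one and 11 changed sign. Genes called in Lyz2cre against WT numbered 771, and 342 with no filter, 1171 over protein-coding genes, 436 without the trend and 390 with the replicate block; leaving out 1 library gave 203 to 778. In CD11ccre against WT 329 were called, and 201 with quantile normalization, 215 without Ftl1, Fth1 and Chil3, 551 without mitochondrially encoded genes, 688 over protein-coding genes, 122 without the trend and 21 with the block; leaving out 1 library gave 23 to 170. Between CD11ccre and Lyz2cre 13 were called, and 210 with no filter, 2 over protein-coding genes and 3 with the block; leaving out 1 library gave 1 to 17. Of the 9 genes, 2 were called in Lyz2cre against WT, and 1 without the trend or with the block (1 to 2 leaving out 1 library). In CD11ccre 1 was called, and 2 with no filter, at a mean TPM of at least 5, without mitochondrially encoded genes or over protein-coding genes, 0 with the block and 0 to 1 leaving out 1 library. Fits with a library left out or with the block have fewer residual degrees of freedom; other causes were not tested. The sign changed in Lyz2cre against WT for Slc39a7 (-0.00080 without mitochondrially encoded genes, and -0.34 to 0.28 leaving out 1 library, lowest without WT replicate 3) and Slc30a5 (-0.032 without mitochondrially encoded genes, and -0.13 to 0.20 leaving out 1 library, lowest without WT replicate 2). In CD11ccre against WT it changed for Slc39a7 (-0.017 without mitochondrially encoded genes, -0.14 with the block, and -0.36 to 0.26 leaving out 1 library, lowest without WT replicate 3), Slc30a1 (0.12 with median-of-ratios scaling, 0.15 with quantile normalization) and Slc30a5 (0.018 with median-of-ratios scaling). CD11ccre minus Lyz2cre was -0.094 to 0.24 for Slc39a2 leaving out 1 library, lowest without Lyz2cre replicate 1. Deviations of same-numbered Lyz2cre and WT libraries correlated at -0.015, 0.043 and 0.066 across genes, so the numbers were not taken to pair the libraries. With the block, calls ended in Lyz2cre for Mtf1 (adjusted p = 0.0789), Slc39a11 (0.0644), Slc31a2 (0.0854) and Sgk1 (0.107) and in CD11ccre for Slc39a2 (0.0794), Siah1a (0.0787) and Siah2 (0.0740). Among values that did not pass, leaving out WT replicate 2 or 3 moved Slc30a1 in Lyz2cre to -0.39 or -0.11 and Slc30a5 in CD11ccre to -0.46 or -0.13, and leaving out WT replicate 2 moved Mt1 and Mt2 in CD11ccre to 0.12 and 0.26. CD11ccre minus Lyz2cre was -0.27 for Mt1 without Lyz2cre replicate 2, and -0.74 for Mt1 and -0.82 for Mt2 without Lyz2cre replicate 3.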
